A study of Mus musculus with 10 samples.

Results

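The 51 genes described here act in mitosis, in the attachment of chromosomes to the spindle and in cytokinesis, and they were chosen by name for that role, with earlier results of these data known. On the mouse expression array used, 50 of them had a probe set named to that gene alone, out of 18194 genes measured, and Ccnb1 is the 1 that is not analysed here. Levels were measured in primary keratinocytes of newborn (P1) FVB mice, on 10 arrays in 4 groups. The undifferentiated group (n = 2) was kept in 0.05 mM calcium. The differentiated group (n = 4) was moved to 0.4 mM calcium for 2 days, which starts keratinocyte differentiation in culture. The remaining groups were differentiated in the same way, and either expressed A-C/EBP (n = 2), a dominant negative that blocks DNA binding of C/EBP transcription factors and was switched on in keratinocytes with a tetracycline system by removal of doxycycline, or received 1 µM 5-AZA (n = 2), the demethylating agent 5-azacytidine. The methods describe wild type FVB mice beside mice with the A-C/EBP transgene, and whether the differentiated controls carried the transgene, and whether arrays of a group came from separate cultures, is not given in the sources used here, so that the p-values below reflect the spread among these arrays alone.

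Cells enter mitosis when Cdk1 bound to A- and B-type cyclins is activated, and they leave it when the anaphase promoting complex destroys those cyclins and securin. In between, condensins compact the chromosomes, kinetochores attach them to the spindle, the spindle assembly checkpoint holds anaphase until all are attached, and kinesins and the contractile ring then separate the daughter cells. In the epidermis these genes belong to the dividing basal layer, and keratinocytes leave the cell cycle as they differentiate. In a bulk culture, fewer dividing cells and less of each mRNA per cell cannot be told apart.

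Most of these genes are transcribed late in the cell cycle, and their promoters are known for pairing CCAAT boxes, bound by NF-Y, with a cell cycle homology region (CHR), bound by MuvB complexes. RefSeq promoter windows on GRCm38.p6, from 250 bases before to 50 bases after the gene start, were found for 40 of the 50 genes. The windows below are those of the 4 genes with both elements and the smallest adjusted p in differentiation, shown because their mRNA changes are described next. Ttk lies at chr9:83834439-83834738, Ncapg at chr5:45669675-45669974, Cenpe at chr3:135212313-135212612 and Espl1 at chr15:102296043-102296342, all on the plus strand, and capitals mark CHR and CCAAT letters on either strand.
Ttk: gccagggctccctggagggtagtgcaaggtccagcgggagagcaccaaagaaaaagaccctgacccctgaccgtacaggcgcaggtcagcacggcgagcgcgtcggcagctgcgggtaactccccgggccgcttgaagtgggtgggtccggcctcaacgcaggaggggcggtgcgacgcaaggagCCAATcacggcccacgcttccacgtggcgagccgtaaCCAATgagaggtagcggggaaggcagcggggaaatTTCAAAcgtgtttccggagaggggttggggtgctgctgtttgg
Ncapg: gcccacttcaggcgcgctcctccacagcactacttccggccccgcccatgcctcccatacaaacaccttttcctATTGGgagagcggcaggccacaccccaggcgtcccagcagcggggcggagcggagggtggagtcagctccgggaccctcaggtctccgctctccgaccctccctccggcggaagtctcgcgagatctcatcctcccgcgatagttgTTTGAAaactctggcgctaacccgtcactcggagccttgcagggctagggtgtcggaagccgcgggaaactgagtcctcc
Cenpe: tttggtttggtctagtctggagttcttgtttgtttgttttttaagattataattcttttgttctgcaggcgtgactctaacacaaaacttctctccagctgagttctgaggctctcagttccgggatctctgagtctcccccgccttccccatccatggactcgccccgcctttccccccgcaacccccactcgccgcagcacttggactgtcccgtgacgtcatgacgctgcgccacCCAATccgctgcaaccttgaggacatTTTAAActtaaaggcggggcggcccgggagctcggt
Espl1: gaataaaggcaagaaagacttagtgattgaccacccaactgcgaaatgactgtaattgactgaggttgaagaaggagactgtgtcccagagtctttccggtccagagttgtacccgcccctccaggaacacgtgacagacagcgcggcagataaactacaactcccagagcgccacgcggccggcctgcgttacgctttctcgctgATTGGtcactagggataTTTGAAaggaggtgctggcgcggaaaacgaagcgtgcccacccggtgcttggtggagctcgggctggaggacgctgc

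In these windows the CHR of Ttk starts 7 bases after the gene start and is read on the minus strand, with CCAAT boxes 65 and 28 bases before the start. The CHR of Ncapg begins at -30 and that of Espl1 at -27 relative to the start, while Cenpe carries the TTTAAA form at 14 and a CCAAT box at -12. A CHR (TTTGAA or TTTAAA, either strand) was found in a window of 30 of the 40 genes (75.0%), against 30.6% of 27025 genes with a window. A CCAAT box, searched as CCAAT on either strand, was found for 31 genes (77.5%, against 41.1% of all genes). Summed over the windows of a gene, which can overlap and count a box again, 2 or more matches were found for 21 genes (52.5%). For all genes the share was 13.3%, but there matches were counted within single windows, so the 2 shares cannot be compared. Both elements occurred in the same window for 26 genes (65.0%, against 12.2%). The CHR matches lay near the start, since 26 of the 40 genes (65.0%) had one that began at -50 or later, against 9.54% of all genes.

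Few of the same windows held elements of the factors the study followed, with the CREB element above its share over all genes. The study used longer promoter regions, and sites outside these windows were not searched. The C/EBP sequence TTGCGCAA was found for none of the 40 genes, and for 0.207% of all genes. The AP-1 sequences TGACTCA and TGAGTCA were found for 1 gene (2.5%), Depdc1a, against 5.95% of all genes. The CREB element TGACGTCA was found for 3 genes (7.5%), Cenpe, Ncaph and Ndc80, against 2.03%. The E2F letters TTTGGCGC, TTTCGCGC, TTTCCCGC or TTTGCCGC were found for 3 genes (7.5%), against 2.6%. AP-1 and CREB elements were searched on both strands, as were the other sequences, and a match describes letters, not a bound site. The median change in differentiation was -2.02 on the log2 scale over the 30 genes with a CHR and -1.40 over the 10 without one, a difference given as a description and not tested.

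**Figure D1:**
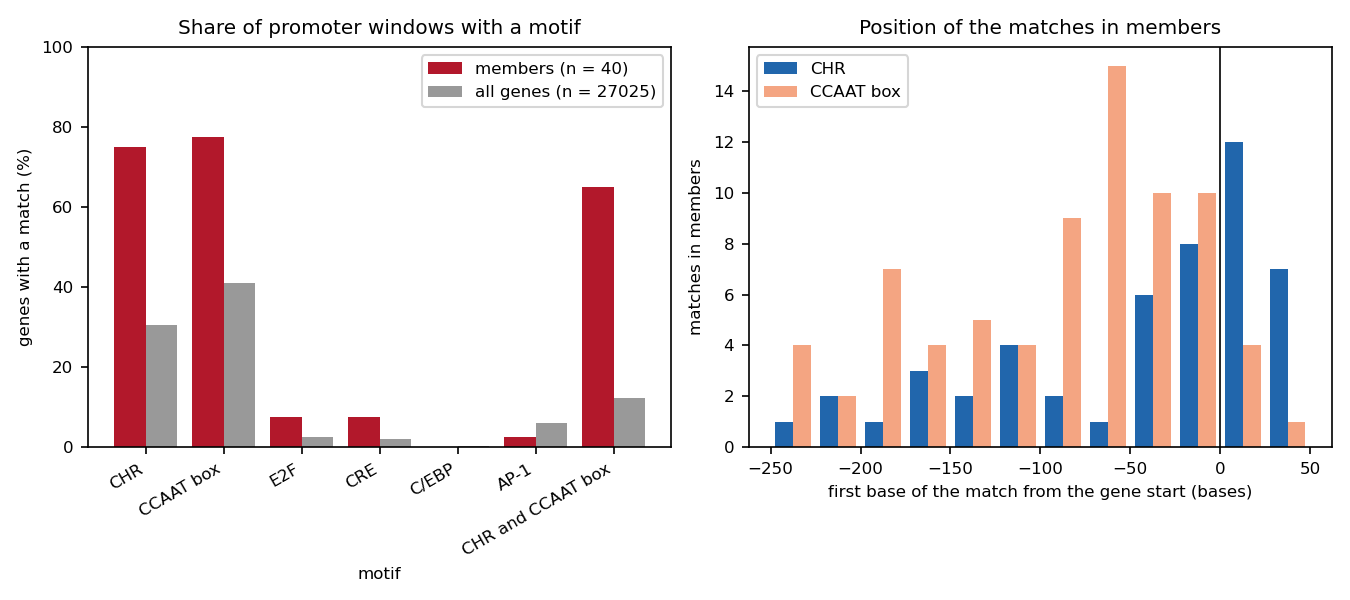
Left, the share of genes (%) whose promoter window holds each element, for the 40 mitosis genes with a window (red) and all 27025 genes (grey). Right, the number of CHR and CCAAT matches by the position of their first base relative to the gene start (bases). CHR and CCAAT boxes were found for 75.0% and 77.5% of the mitosis genes with a window, and most CHR matches lie close to the start.

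All values below are log2 levels after RMA, averaged over the probe sets of a gene, and a gene is said to have fallen or risen where the adjusted p of the limma fit was under 0.05. The 10 arrays had medians from 4.64 to 4.78. Array maxima lay between 14.42 and 14.58 except in differentiated replicate 2 (13.67), and the mean of the hybridization controls was 8.66 to 10.33 except in A-C/EBP replicate 2 (11.08). Keratinocyte markers such as Krt5 and Krt14 were high throughout. The mean over 11 markers was 10.09 to 11.11, and none was below the array median. Those of differentiation did not move together. Krt1 stood at 9.18 and 10.98 undifferentiated against 8.38 to 9.17 differentiated, and Krt10 at 8.33 and 9.96 against 7.6 to 8.1. Ivl went the other way (9.72 and 10.38 against 10.72 to 11.11), and Lor overlapped. In each array 5 or 6 of 7 endothelial and 7 or 8 of 14 immune markers were below the array median. Among the other immune markers, Lyz2 (6.83 to 9.18), Csf1r (6.25 to 7.49) and Cd68 (6.07 to 7.06) were above it throughout. Most of the melanocyte markers (8, mean 7.57 to 8.27) and fibroblast markers (12, mean 5.13 to 6.26) were above the median in every array. Below it were 2 to 4 fibroblast markers in each array and 1 melanocyte marker in differentiated replicate 4. The fibroblast mean was 5.21 and 5.90 in the undifferentiated arrays and 5.34 to 6.13 in the differentiated. It was 5.13 and 5.47 in the A-C/EBP arrays and 5.76 and 6.26 in the 5-AZA arrays. The part of such cells in the results was not tested. Differentiated replicate 3 stood apart for the mitosis genes, as described after the first comparison.

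Upon differentiation the mRNA of every one of the 50 genes fell. The median change was -1.72 (log2), against -0.01 over all genes, and ranged from -3.44 for Depdc1a to -0.44 for Bub3. Of the 50, 47 fell by more than 1 log2 unit and 19 by more than 2, and their adjusted p ran from 8.61e-05 to 0.00772 in limma. Over all 18194 genes 9.13% fell, and in 19.0% all 4 differentiated arrays were below both undifferentiated arrays, which was true of all 50 mitosis genes. The median level of the 50 was 7.25 and 6.79 in the undifferentiated arrays, and 5.54, 5.60, 4.99 and 5.45 in the differentiated ones.

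**Figure D2:**
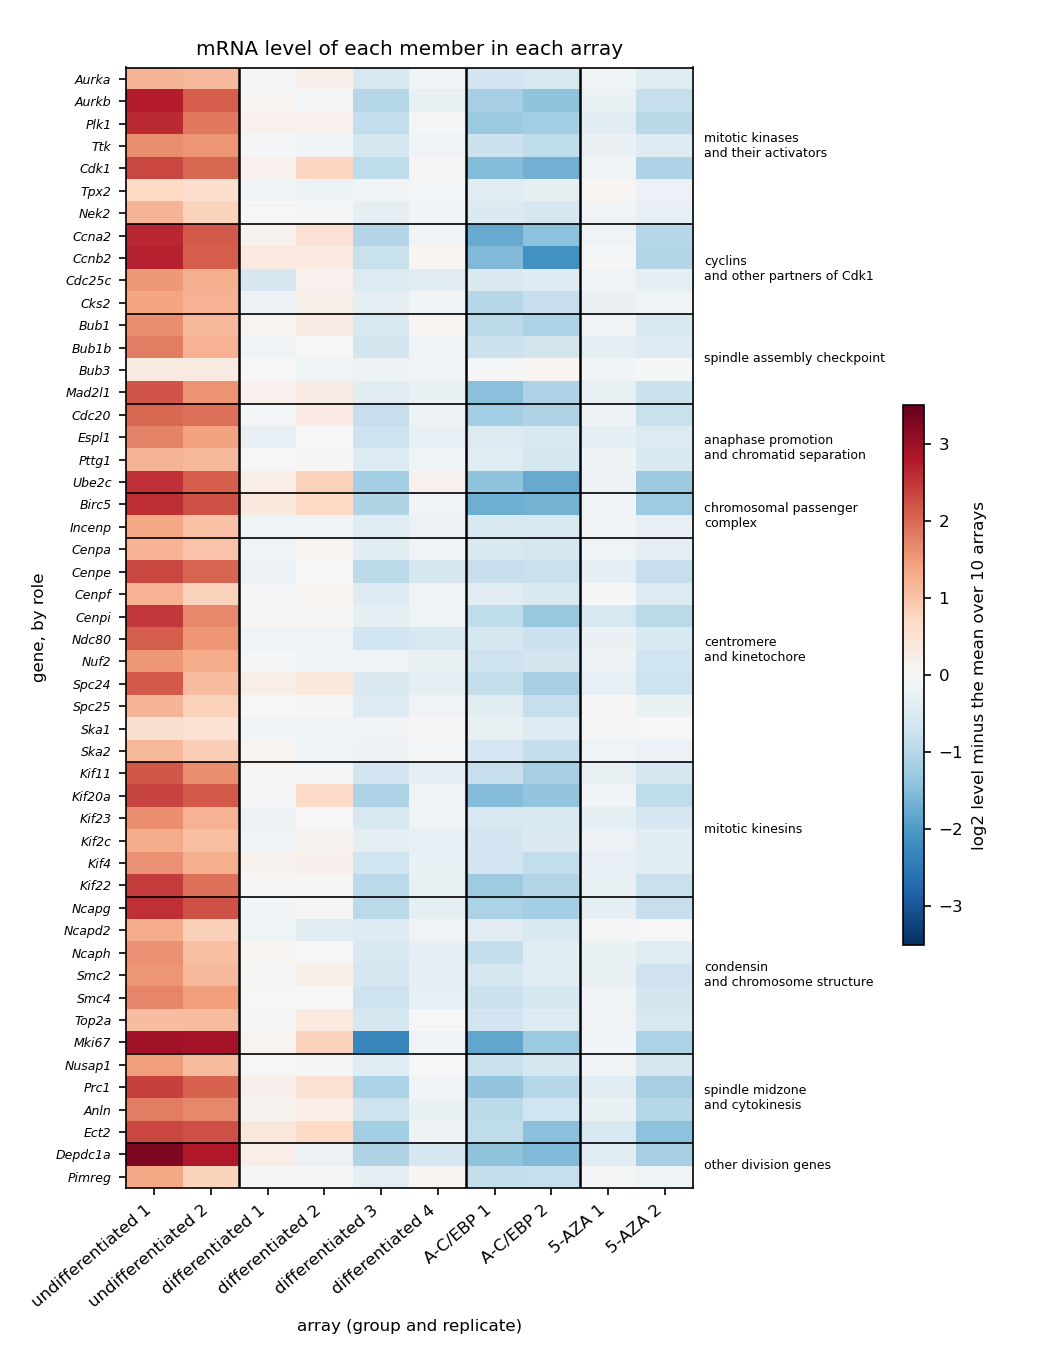
Level of each of the 50 genes (vertical axis, grouped by role) in each array (horizontal axis), as the log2 level minus that gene's mean over the 10 arrays, from blue (lower) to red (higher). The 2 undifferentiated arrays are the highest for every gene, and differentiated replicate 3 is the lowest differentiated array in 46 of 50.

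Mitotic kinases and their activators all fell (7 of 7, median -1.80). Ttk, the kinase that recruits checkpoint proteins to unattached kinetochores, stood at 6.10 and 6.03 in the undifferentiated arrays, at 4.44, 4.38, 3.87 and 4.36 in the differentiated arrays, at 3.73 and 3.60 in the A-C/EBP arrays and 4.24 and 4.03 in the 5-AZA arrays. The undifferentiated arrays were well above all others, and differentiated replicate 3 was below its group. Ttk fell by 1.80 (SE 0.16, adjusted p 8.61e-05 in limma), the smallest adjusted p among the 50. Aurkb, the kinase of the chromosomal passenger complex that corrects faulty attachments, stood at 8.18 and 7.55 undifferentiated, 5.51, 5.36, 4.43 and 5.18 differentiated, 4.26 and 4.01 in the A-C/EBP arrays and 5.21 and 4.61 in the 5-AZA arrays. Its undifferentiated and differentiated arrays did not overlap, and it fell by 2.74 (SE 0.30, adjusted p 0.000253). Plk1, which drives entry into and exit from mitosis, fell by 2.37. The remaining 4 of this role also fell, namely Cdk1 itself (-2.17), the spindle pole kinase Aurka (-1.30), the centrosomal kinase Nek2 (-1.10) and Tpx2, the activator of Aurka (-0.76).

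All 4 measured cyclins and partners of Cdk1 fell (median -2.07). Cks2, a small protein that binds Cdk1, stood at 10.83 and 10.66 undifferentiated, 9.25, 9.66, 9.13 and 9.34 differentiated, 8.44 and 8.65 in the A-C/EBP arrays and 9.21 and 9.31 in the 5-AZA arrays. The A-C/EBP arrays were the lowest of the 10, and those with 5-AZA lay within the differentiated range. Cks2 fell by 1.40 in differentiation (SE 0.15, adjusted p 0.000197). Cdc25c, a phosphatase that activates Cdk1, stood at 6.24 and 5.98 undifferentiated, 4.14, 4.88, 4.24 and 4.34 differentiated, 4.22 and 4.27 in the A-C/EBP arrays and 4.57 and 4.39 in the 5-AZA arrays. Here both treated groups lay within the differentiated range, and the undifferentiated arrays were above all others. Cdc25c fell by 1.71 (SE 0.19, adjusted p 0.000245). Both measured mitotic cyclins fell, cyclin A2 at -2.51 (Ccna2) and cyclin B2 at -2.42 (Ccnb2).

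All 4 genes of the spindle assembly checkpoint fell (median -1.56), 3 of them steeply and Bub3 little. Bub1b, part of the complex that inhibits anaphase, stood at 6.79 and 6.23 undifferentiated, 4.88, 5.00, 4.36 and 4.87 differentiated, 4.26 and 4.36 in the A-C/EBP arrays and 4.69 and 4.56 in the 5-AZA arrays. The undifferentiated arrays were highest and A-C/EBP replicate 2 reached the lowest differentiated array. Bub1b fell by 1.73 (SE 0.19, adjusted p 0.000297). Mad2l1, the Mad2 protein of the same complex, stood at 10.11 and 9.50 undifferentiated, 8.06, 8.20, 7.52 and 7.69 differentiated, 6.47 and 6.84 in the A-C/EBP arrays and 7.66 and 7.17 in the 5-AZA arrays. Its A-C/EBP arrays were below all 8 others, and it fell by 1.93 in differentiation (SE 0.24, adjusted p 0.000472). The kinase Bub1 fell by 1.40. Bub3, the adaptor that carries Bub1 and Bub1b to kinetochores, stood at 6.12 and 6.14 undifferentiated, 5.79, 5.67, 5.65 and 5.66 differentiated, 5.78 and 5.88 in the A-C/EBP arrays and 5.72 and 5.74 in the 5-AZA arrays. The 8 arrays of differentiated cells, treated or not, were close to each other, and its change of -0.44 (SE 0.09, adjusted p 0.00604) was the smallest of the 50.

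Genes of anaphase and chromatid separation fell in 4 of 4 cases (median -2.02). Espl1, the separase that cleaves cohesin, stood at 6.50 and 6.17 undifferentiated, 4.47, 4.78, 4.05 and 4.47 differentiated, 4.30 and 4.21 in the A-C/EBP arrays and 4.44 and 4.29 in the 5-AZA arrays. All 8 arrays of differentiated cells, treated or not, lay in 1 range below the undifferentiated arrays. Espl1 fell by 1.89 (SE 0.18, adjusted p 0.000121). Pttg1, the securin that holds separase inactive, stood at 8.17 and 8.12 undifferentiated, 6.95, 7.02, 6.50 and 6.87 differentiated, 6.55 and 6.35 in the A-C/EBP arrays and 6.80 and 6.43 in the 5-AZA arrays. The treated arrays overlapped the lower end of the differentiated range or lay just under it, and Pttg1 fell by 1.31 (SE 0.16, adjusted p 0.000409). Ube2c, the ubiquitin-conjugating enzyme of the anaphase promoting complex, fell by 2.32, and the activator Cdc20 fell by 2.15.

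Both listed subunits of the chromosomal passenger complex beside Aurkb fell. Incenp, its scaffold, stood at 6.70 and 6.36 undifferentiated, 5.18, 5.25, 4.91 and 5.13 differentiated, 4.79 and 4.77 in the A-C/EBP arrays and 5.23 and 5.04 in the 5-AZA arrays. The A-C/EBP arrays were just under the lowest differentiated array. Incenp fell by 1.41 (SE 0.13, adjusted p 0.000111). Birc5, known as survivin, stood at 9.70 and 9.34 undifferentiated, 7.49, 7.80, 6.07 and 6.99 differentiated, 5.41 and 5.46 in the A-C/EBP arrays and 7.02 and 5.87 in the 5-AZA arrays. Differentiated replicate 3 and 5-AZA replicate 2 were low within their groups, and the change of -2.43 had a wider error (SE 0.44, adjusted p 0.00399).

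Centromere and kinetochore genes fell in 10 of 10 cases, with a median of -1.41. Ndc80, the microtubule-binding subunit of the outer kinetochore, stood at 7.23 and 6.65 undifferentiated, 4.98, 4.95, 4.42 and 4.56 differentiated, 4.50 and 4.35 in the A-C/EBP arrays and 4.87 and 4.58 in the 5-AZA arrays. The treated arrays overlapped the differentiated range or, in A-C/EBP replicate 2, lay just under it. Ndc80 fell by 2.21 (SE 0.20, adjusted p 0.000105). Its partner Nuf2 stood at 6.02 and 5.80 undifferentiated, 4.46, 4.36, 4.35 and 4.23 differentiated, 3.76 and 3.84 in the A-C/EBP arrays and 4.32 and 3.79 in the 5-AZA arrays. The 4 differentiated arrays were tight, with both A-C/EBP arrays and 5-AZA replicate 2 below them, and Nuf2 fell by 1.56 (SE 0.14, adjusted p 0.000112). Spc24 and Spc25, the remaining subunits of that complex, fell as well (-1.67 and -1.16). With probe sets averaged, the kinetochore motor Cenpe fell by 2.62, more than Cenpi of the inner kinetochore (-2.18), the centromeric histone Cenpa (-1.25) and Cenpf (-1.16). By the brightest probe set of each gene, Cenpe (-2.59), Cenpa (-2.57) and Cenpf (-2.56) fell about equally. Ska2 and Ska1, which hold kinetochores to moving microtubule ends, changed least in this role (-1.09 and -0.61).

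Mitotic kinesins fell in 6 of 6 cases (median -1.88). Kif23, the motor of the central spindle that is needed for cytokinesis, stood at 6.01 and 5.60 undifferentiated, 4.22, 4.42, 3.84 and 4.27 differentiated, 3.87 and 3.85 in the A-C/EBP arrays and 4.04 and 3.81 in the 5-AZA arrays. Treated and untreated differentiated arrays overlapped. Kif23 fell by 1.62 (SE 0.17, adjusted p 0.000197). Kif11, the motor that pushes spindle poles apart, stood at 6.98 and 6.43 undifferentiated, 4.87, 4.76, 4.15 and 4.50 differentiated, 4.02 and 3.66 in the A-C/EBP arrays and 4.55 and 4.24 in the 5-AZA arrays. It fell by 2.14 (SE 0.22, adjusted p 0.000200), and its A-C/EBP arrays were the lowest. Kif22, a chromosome-bound motor, fell by 2.46. The midzone motor Kif20a (-2.40), the chromosome arm motor Kif4 (-1.60) and the microtubule depolymerase Kif2c (-1.33) fell too.

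Condensin and chromosome structure genes fell in 7 of 7 cases (median -1.52). Ncapg, a condensin I subunit, stood at 7.29 and 6.96 undifferentiated, 4.66, 4.79, 3.79 and 4.41 differentiated, 3.63 and 3.54 in the A-C/EBP arrays and 4.41 and 3.95 in the 5-AZA arrays. The A-C/EBP arrays were under every differentiated array, if only slightly under replicate 3. Ncapg fell by 2.71 (SE 0.25, adjusted p 0.000116). Ncapd2 of the same complex stood at 5.51 and 5.05 undifferentiated, 4.07, 3.83, 3.76 and 4.08 differentiated, 3.86 and 3.68 in the A-C/EBP arrays and 4.16 and 4.21 in the 5-AZA arrays. It fell by 1.35 (SE 0.15, adjusted p 0.000245), and its 5-AZA arrays were slightly above all differentiated arrays. Mki67, which coats mitotic chromosomes and is used as a marker of proliferation, stood at 10.16 and 10.11 undifferentiated, 7.32, 8.01, 4.93 and 7.07 differentiated, 5.40 and 5.90 in the A-C/EBP arrays and 7.11 and 6.10 in the 5-AZA arrays. Its change of -3.30 carried the widest error of the list (SE 0.68, adjusted p 0.00767), as replicate 3 lay far below the other differentiated arrays. The third condensin I subunit Ncaph fell by 1.52, and the condensin ATPases Smc4 (-1.84) and Smc2 (-1.52) and topoisomerase Top2a (-1.17) fell with it.

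Genes of the spindle midzone and cytokinesis fell in 4 of 4 cases (median -2.12). Nusap1, which bundles spindle microtubules, stood at 6.45 and 6.07 undifferentiated, 4.98, 4.94, 4.56 and 4.95 differentiated, 4.19 and 4.38 in the A-C/EBP arrays and 4.84 and 4.40 in the 5-AZA arrays. The differentiated arrays were close to each other except replicate 3. Nusap1 fell by 1.40 (SE 0.17, adjusted p 0.000448). Anln, the anillin of the contractile ring, stood at 8.16 and 8.04 undifferentiated, 6.49, 6.61, 5.65 and 6.13 differentiated, 5.41 and 5.67 in the A-C/EBP arrays and 6.13 and 5.36 in the 5-AZA arrays. A-C/EBP and 5-AZA arrays both reached the level of differentiated replicate 3, and Anln fell by 1.88 (SE 0.27, adjusted p 0.00118). Ect2, which activates the GTPase that closes the ring, fell by 2.37, and the microtubule crosslinker Prc1 had almost the same change (-2.36).

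The last pair of genes, Depdc1a and Pimreg, also fell. Depdc1a stood at 7.68 and 7.21 undifferentiated, 4.65, 4.20, 3.34 and 3.83 differentiated, 3.01 and 2.86 in the A-C/EBP arrays and 4.04 and 3.23 in the 5-AZA arrays. The step between undifferentiated and differentiated arrays was the largest of the 50, a change of -3.44 (SE 0.33, adjusted p 0.000141), or 10.9-fold. Pimreg stood at 6.63 and 6.06 undifferentiated, 5.33, 5.22, 4.95 and 5.34 differentiated, 4.44 and 4.49 in the A-C/EBP arrays and 5.25 and 5.14 in the 5-AZA arrays. The A-C/EBP arrays were clearly apart from the 6 other arrays of differentiated cells, and Pimreg fell by 1.13 in differentiation (SE 0.16, adjusted p 0.00114).

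The size of these falls depended on how probe sets were combined. The 50 genes had 109 probe sets, 33 genes having more than 1, and 21 of these probe sets were below the array median in all 10 arrays. With the brightest probe set of each gene, the median change was -2.30 instead of -1.72 and 35 genes fell by more than 2. For 15 genes the value moved by over 1.5 times, among them Ttk (-1.80 to -3.28), Incenp (-1.41 to -2.72), Aurka (-1.30 to -2.68), Bub1 (-1.40 to -2.59), Cenpa (-1.25 to -2.57), Top2a (-1.17 to -2.37) and Tpx2 (-0.76 to -1.25). Ndc80, Depdc1a, Mki67, Ccnb2 and Cdk1 have only 1 probe set each, so their values could not change with this choice. In Aurka, 1 probe set read 9.72 and 9.29 undifferentiated against 7.05, 7.38, 5.98 and 6.90 differentiated, while the other stayed between 3.31 and 3.67 in all arrays. Only Bub3 (-0.63) and Ska2 (-0.92) were above -1 by the brightest probe set, and the 5 probe sets of Bub3 gave changes from -0.63 to -0.31. In Aurka, Bub1b, Kif23, Kif2c and Nek2, 1 probe set had the opposite sign to the others.

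**Figure D3:**
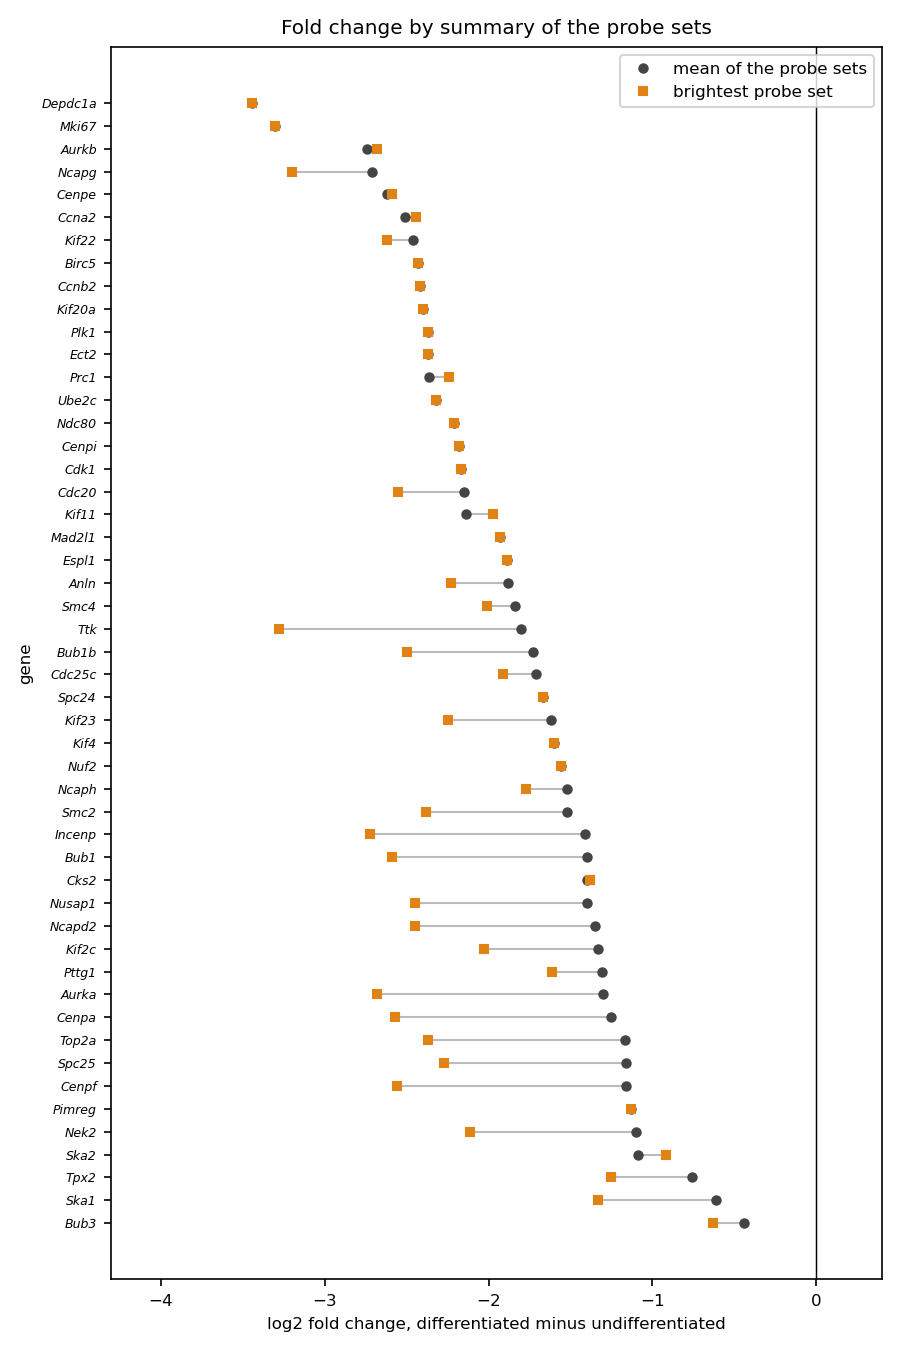
Change of each gene (log2, differentiated minus undifferentiated) with all its probe sets averaged (dark circles) and with its brightest probe set (orange squares), joined by a line. The brightest probe set gives the larger fall in most genes with several probe sets, and every gene is below 0 either way.

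The 50 genes moved together from array to array within a group. Differentiated replicate 3 was the lowest of the 4 differentiated arrays in 46 genes and replicate 2 the highest in 32. The median deviation of the 50 from the differentiated mean was -0.42 in replicate 3 and 0.29 in replicate 2, against 0.04 and -0.09 over all genes. Undifferentiated replicate 1 was above replicate 2 in 48 genes, 5-AZA replicate 1 above replicate 2 in 46, and the A-C/EBP replicates were split 25 to 25. The SD over the 4 differentiated arrays had a median of 0.32 for the 50 genes and 0.15 for all genes, from 0.06 for Bub3 to 1.33 for Mki67. As a description over the 10 arrays, which share groups, each gene was correlated with the mean of the others at a Pearson r of 0.982 in the median and 0.775 at the lowest (Bub3), and 49 were over 0.9. Without differentiated replicate 3 the median change in differentiation was -1.62, and without undifferentiated replicate 1 it was -1.52.

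By the methods, doxycycline was removed from A-C/EBP cultures at the switch to low calcium, so that expression was induced before calcium was raised. No undifferentiated group with A-C/EBP was measured. A-C/EBP arrays were compared with the differentiated controls, and the stage at which a difference arose was not tested. In this comparison 6 of the 50 genes fell further, 0 rose and 44 stayed short of the threshold, whereas 0.583% of all genes fell. The 6 were Cks2, Ska2, Mad2l1, Ccnb2, Cenpi and Pimreg. The median change of the 50 was -0.60 (log2), against 0.01 over all genes. Of the 50 changes 49 were below 0, against 8608 of 18194 over all genes, with Bub3 at 0.14 (SE 0.09, adjusted p 0.567). Both A-C/EBP arrays were below all 4 differentiated arrays in 30 genes, against 8.81% of all genes. At an unadjusted p under 0.05, 37 of the 50 were lower, against 5.52% of all genes. The median levels of the 50 were 4.77 in both A-C/EBP arrays, and 23 and 24 of the 50 were under the array median there.

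Cks2 and Mad2l1, whose array values are given above, fell by 0.80 (SE 0.15, adjusted p 0.0243) and by 1.21 (SE 0.24, adjusted p 0.0327). Ccnb2, the B-type cyclin measured here, stood at 9.90 and 9.31 undifferentiated, 7.53, 7.54, 6.41 and 7.26 differentiated, 5.65 and 5.09 in the A-C/EBP arrays and 7.15 and 6.17 in the 5-AZA arrays. The A-C/EBP arrays were below all others, and the 5-AZA arrays spanned the lower part of the differentiated range and beyond it. Ccnb2 fell by 1.82 (SE 0.36, adjusted p 0.0355), the largest change of the 50 in this comparison with probe sets averaged, or 3.52-fold.

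Ska2 stood at 7.27 and 6.96 undifferentiated, 6.16, 6.00, 5.92 and 6.03 differentiated, 5.52 and 5.26 in the A-C/EBP arrays and 5.95 and 5.89 in the 5-AZA arrays. Its differentiated arrays were tight and the A-C/EBP arrays lay apart from them. Ska2 fell by 0.64 (SE 0.12, adjusted p 0.0299). Cenpi stood at 7.48 and 6.71 undifferentiated, 5.07, 5.05, 4.67 and 4.87 differentiated, 4.12 and 3.68 in the A-C/EBP arrays and 4.45 and 4.07 in the 5-AZA arrays. All 4 treated arrays were below the differentiated range, those with A-C/EBP and 5-AZA overlapping each other. Cenpi fell by 1.02 (SE 0.22, adjusted p 0.0499) and Pimreg by 0.75 (SE 0.16, adjusted p 0.0499), both at the edge of the threshold.

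**Figure D4:**
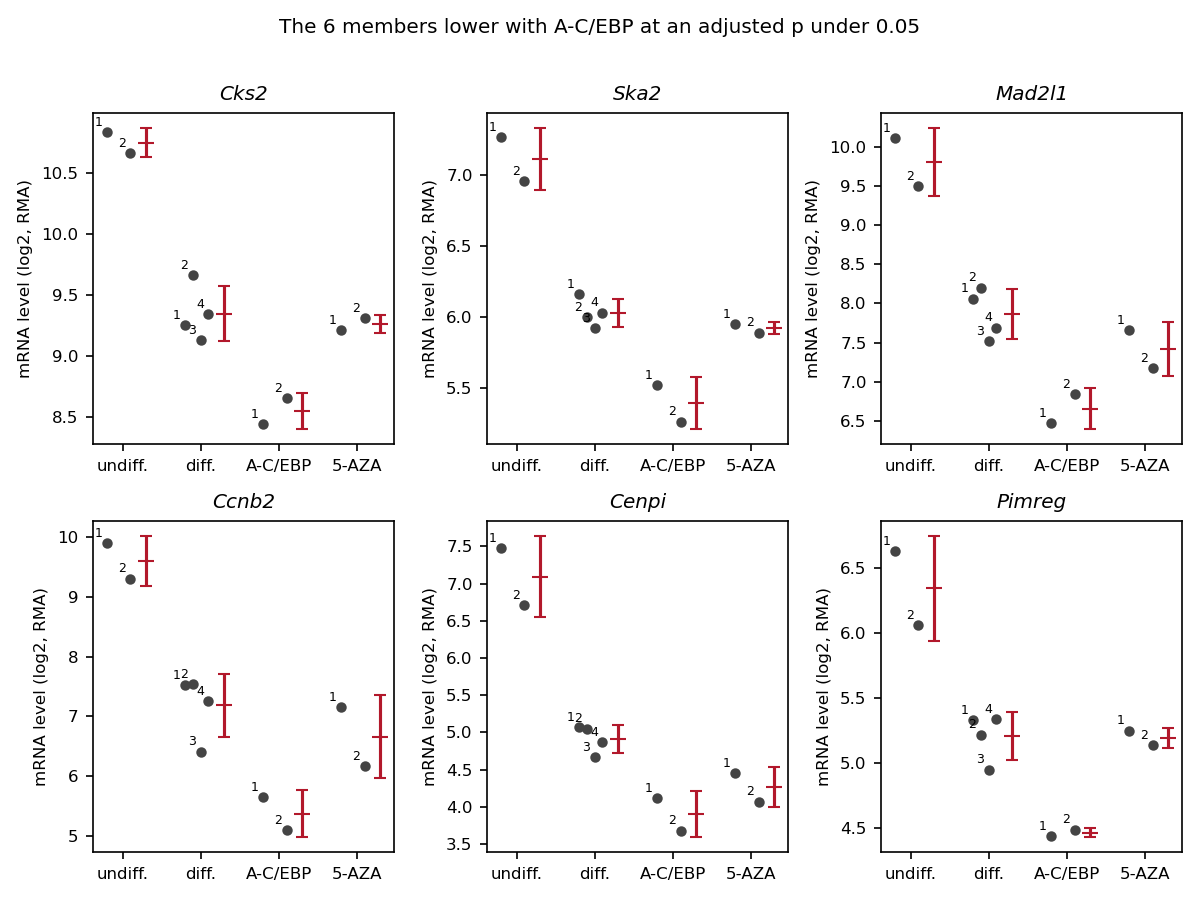
mRNA level (log2, RMA; axes do not start at 0) of the 6 genes that fell with A-C/EBP, for each array (points, numbered by replicate) in the undifferentiated (undiff.), differentiated (diff.), A-C/EBP and 5-AZA groups, with the group mean and SD (red bars, n = 2, 4, 2 and 2). In each panel both A-C/EBP points are below all differentiated points.

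Larger but more variable changes did not pass. Birc5 differed by -1.66 (SE 0.44, adjusted p 0.0983), Cdk1 by -1.61 (SE 0.39, adjusted p 0.0710), Ube2c by -1.58 (SE 0.48, adjusted p 0.144), Ccna2 by -1.47 (SE 0.38, adjusted p 0.0942) and Kif20a by -1.31 (SE 0.38, adjusted p 0.137) between A-C/EBP and differentiated arrays. By role the median difference was -1.13 in cyclins and partners of Cdk1. It was -1.0 in the chromosomal passenger complex and -0.91 in other division genes, with 2 genes each. In midzone and cytokinesis genes it was -0.87, in checkpoint genes -0.73, in kinesins and in anaphase genes -0.67 and in kinases -0.60. The smallest were -0.44 in kinetochore genes and -0.42 in condensin and chromosome structure genes. This order holds for averaged probe sets only. With the brightest probe set of each gene, condensin and chromosome structure genes had a median further below 0 than kinesins. Several genes with large falls in differentiation differed little here, such as Cenpe (-0.36), Ndc80 (-0.30), Espl1 (-0.19), Ncapd2 (-0.16) and Cdc25c (-0.15), none of which passed. Their means in the differentiated arrays were, in that order, 4.36, 4.73, 4.44, 3.93 and 4.40, beside array medians of 4.64 to 4.78. At such levels a further fall may not show in full, though Depdc1a, with a mean of 4.0, differed by -1.07. The role medians may share this limit, which was not tested.

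The size of these differences depended on the probe sets here too. With the brightest probe set of each gene the median with A-C/EBP was -0.97 in place of -0.60, and 17 genes moved by over 1.5 times, among them Top2a (-0.49 to -1.48), Cenpa (-0.42 to -1.21), Aurka (-0.48 to -1.06) and Bub1 (-0.99 to -1.86). Bub1 was then the furthest below 0, just past Ccnb2 at -1.82, but did not pass (SE 0.45, adjusted p 0.0599). Again 6 genes fell, as Ska2 lost its call (-0.60, adjusted p 0.0507) and Ska1, at -0.27 with probe sets averaged, gained one (-0.79, SE 0.17, adjusted p 0.0442).

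The number of genes called with A-C/EBP depended strongly on the differentiated controls. Without differentiated replicate 3, the array in which the 50 were lowest, 21 genes fell, 5 of the 6 among them, and the median was -0.70. Without differentiated replicate 1 or 2 only Cks2 passed, without A-C/EBP replicate 1 only Ska2, and without differentiated replicate 4 or A-C/EBP replicate 2 none. Against differentiated replicates 1 and 2 alone 9 genes fell, 2 of the 6 among them, and against replicates 3 and 4 alone none did. Over these alternatives the median of the 50 stayed between -0.73 and -0.40.

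With 5-AZA, compared with the same 4 differentiated arrays, none of the 50 genes passed the limma test in either direction (adjusted p from 0.382 to 0.999), while 0.115% of all genes fell. At an unadjusted p under 0.05, 1 gene was lower, Cenpi at -0.66 (SE 0.22), against 3.08% of all genes. None was higher, against 1094 of all 18194 genes. The median difference was -0.22 (log2), against 0.04 over all genes. Of the 50 genes 43 were below 0 and 7 above, against 7190 and 11004 over all genes. Ect2 was the furthest below at -0.92 (SE 0.46, adjusted p 0.609), followed by Ube2c at -0.72 (SE 0.48, adjusted p 0.717), and Ncapd2 the furthest above at 0.25 (SE 0.15, adjusted p 0.672). In 1 gene, Cenpi, both 5-AZA arrays were below all differentiated arrays, against 5.15% of all genes. The median levels in the 5-AZA arrays were 5.38 and 5.06, within the differentiated range of 4.99 to 5.60. The median difference was -0.02 without 5-AZA replicate 2, -0.40 without 5-AZA replicate 1 and 0.02 against differentiated replicates 3 and 4 alone. The number of genes below 0 was 32 without 5-AZA replicate 2 and 22 against differentiated replicates 3 and 4 alone.

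**Figure D5:**
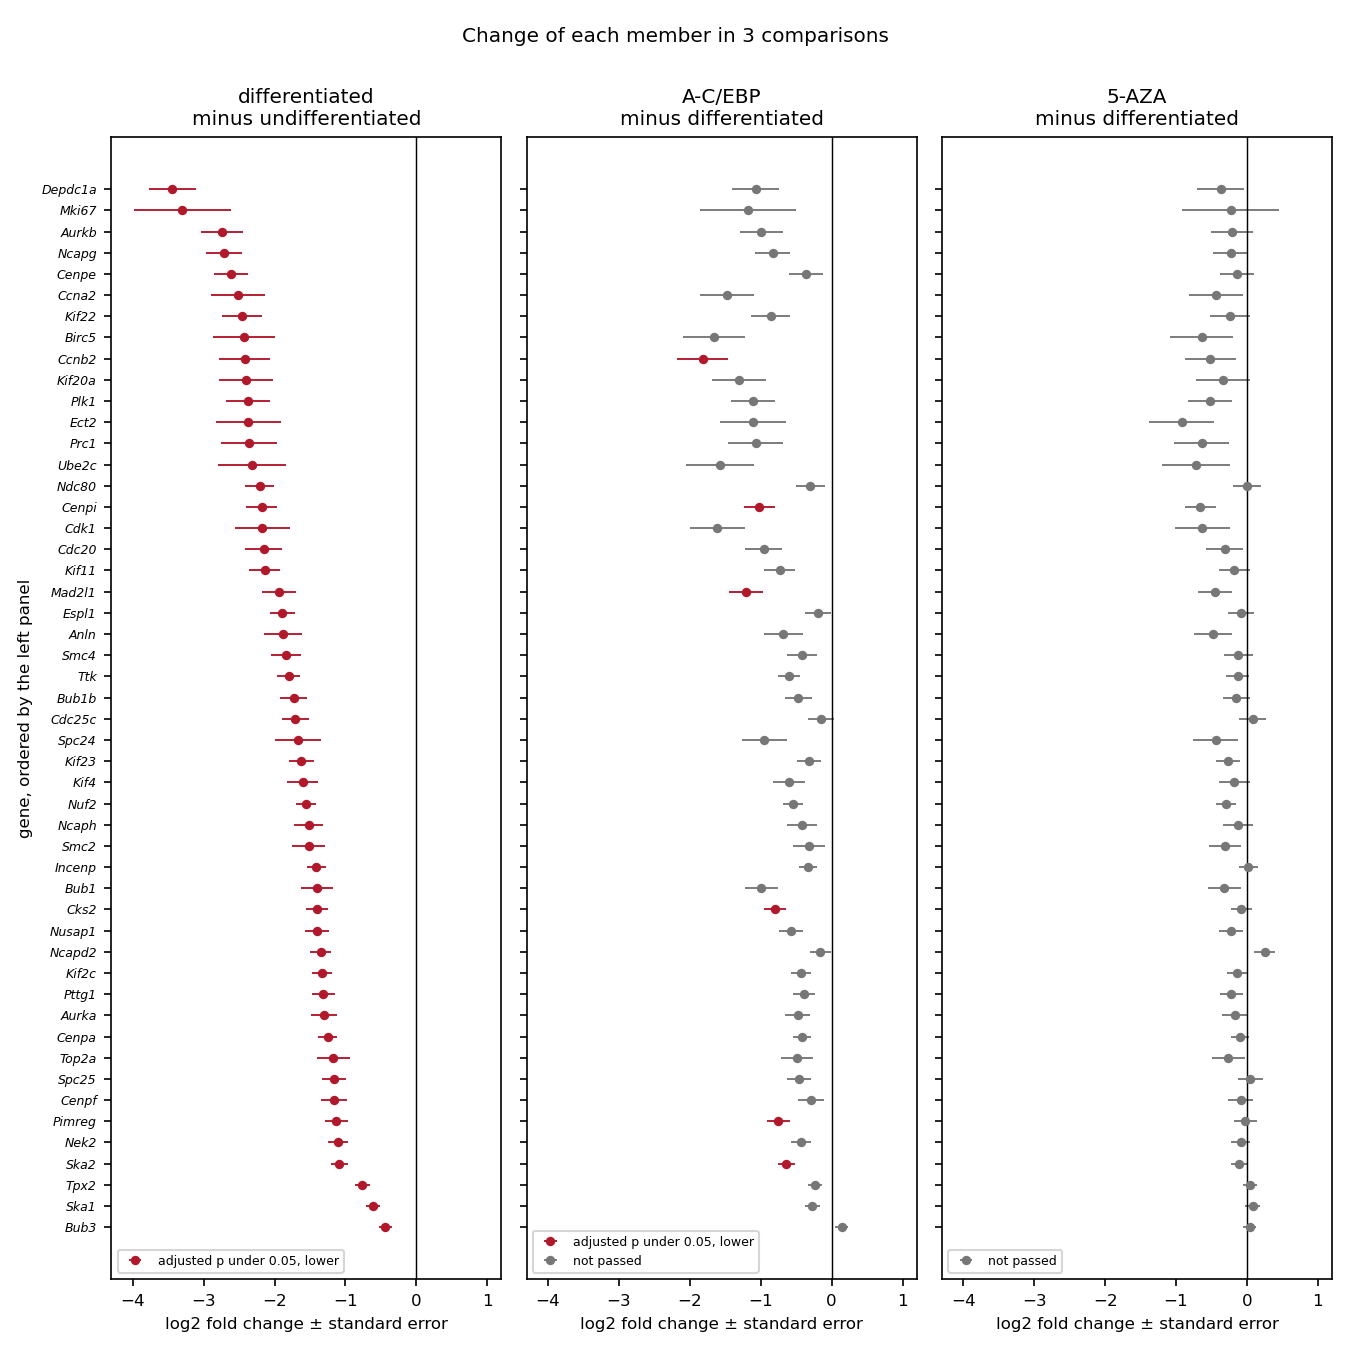
Change of each of the 50 genes (log2 fold change, points, with standard errors as bars) in 3 comparisons, ordered by the change in differentiation, with genes of adjusted p under 0.05 in red. All 50 are red and below 0 on the left, 6 are red with A-C/EBP and none with 5-AZA.

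The A-C/EBP arrays were also set directly against the 5-AZA arrays. None of the 50 genes passed (0 lower, against 1.13% of all genes, and 0 higher, against 2.06%), and 13 were lower at an unadjusted p under 0.05, against 7.71% of all genes. The median difference was -0.39 (-0.60 with the brightest probe sets). Of the 50 genes 49 were below 0 (41 without 5-AZA replicate 1), against 10242 of 18194 over all genes. Both A-C/EBP arrays were below both 5-AZA arrays in 35 genes, against 25.2% of all genes. Cks2 came nearest to the threshold at -0.72 (SE 0.17, adjusted p 0.0509), and Ccnb2 had the largest difference with probe sets averaged, at -1.29 (SE 0.42, adjusted p 0.154).

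Transcriptional regulators of the cell cycle were set beside the 50. Of 20 genes of the MuvB, B-MYB, FOXM1 and pocket protein group, 10 fell in differentiation (against 9.13% of all genes), 1 rose (against 6.64%) and 9 did not pass (median -0.37). The pocket protein Rbl1 (-0.91), B-MYB (Mybl2, -1.27) and the E2F partner Tfdp1 (-1.08) were the 3 with the smallest adjusted p among those that fell, while E2f2, an activating E2F, rose by 0.86 (SE 0.25, adjusted p 0.0390). E2f2 was the only one of the 20 called with A-C/EBP, where 1.49% of all genes rose, at 7.86 and 8.30 against 6.83, 6.23, 6.89 and 7.04 in the differentiated arrays. Its A-C/EBP arrays were the highest of the 10, and E2f2 rose by 1.34 (SE 0.25, adjusted p 0.0252).

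Mybl2 was the only gene of this group called with 5-AZA, where 0.17% of all genes rose. It stood at 6.73 and 6.09 undifferentiated, 5.18, 5.13, 4.95 and 5.29 differentiated, 4.60 and 4.53 in the A-C/EBP arrays and 7.29 and 7.04 in the 5-AZA arrays. The 5-AZA arrays were above even the undifferentiated ones, whereas none of the 50 mitosis genes rose with 5-AZA. Mybl2 rose by 2.03 with 5-AZA (SE 0.17, adjusted p 0.00607), and was lower by 2.60 with A-C/EBP than with 5-AZA (SE 0.20, adjusted p 0.000381).

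In the lists of other division genes, the counts that fell in differentiation stand beside 9.13% over all genes. Of 30 measured kinetochore and checkpoint genes outside the 50, 25 fell and none rose (median -1.26). Those with the smallest adjusted p were the cohesin protector Sgo1 (-2.20), Cenpp (-1.24) and the checkpoint ATPase Trip13 (-1.51), and the genes named for the next lists follow the same order. Of 25 spindle and cytokinesis genes 16 fell (median -1.13), among them Hmmr (-2.04), the kinesin Kif18b (-2.26) and Ckap2l (-1.84), and the GTPase Rhoc rose by 1.48 (adjusted p 0.00119). Of 18 regulators of mitotic entry and exit 11 fell (median -0.54), with the phosphatase Cdc25b at -2.58, the kinase Mastl at -1.41 and Cdca2 at -1.53. Of 15 cohesin and further condensin genes 7 fell (median -0.57), with Ncapd3 at -1.32, the cohesin acetyltransferase Esco2 at -1.86 and Ncapg2 at -2.30.

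The anaphase promoting complex list had the smallest median change of these lists. Of its 17 genes 4 fell and 13 did not pass (median -0.23), and the 4 were Anapc5 (-0.93), the inhibitor Fbxo5 (-2.45), Anapc15 (-0.36) and Cdc23 (-0.49). Of 38 measured genes of DNA replication and S phase, by contrast, 37 fell (median -1.28), with the smallest adjusted p for the primase Prim1 (-1.87), cyclin E2 (Ccne2, -2.33) and the clamp loader Rfc5 (-1.62). With A-C/EBP 4 of those 38 fell, against 0.583% of all genes, namely Prim1 (-0.86), Ccne2 (-0.81), Dbf4 (-0.49) and the licensing inhibitor Gmnn (-1.15). None of the other division lists had a gene that fell. At an unadjusted p under 0.05 in limma, 23 of the 38 were lower (median -0.49), against 5.52% of all genes. So were 16 of 30 kinetochore and checkpoint genes (-0.36), 10 of 25 spindle genes (-0.25) and 6 of 18 entry and exit regulators (-0.22). Of cohesin and anaphase promoting complex genes, 2 of 15 (0.07) and 1 of 17 (-0.09) were lower. Higher at that p were 2 spindle genes, 1 cohesin gene and none of the others named here. With 5-AZA no gene of these lists other than Mybl2 passed.

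Among 18144 further genes, those whose levels followed the mean of the 50 most closely over the 10 arrays were Cep55 (Pearson r 0.998), Sgo2a and Mcm7 (both 0.997), and Cdca5, Aspm and Hmmr (all 0.996). Cep55 stood at 8.13 and 7.50 undifferentiated, 5.46, 5.74, 4.51 and 5.23 differentiated, 4.13 and 3.92 in the A-C/EBP arrays and 5.14 and 4.31 in the 5-AZA arrays. It had the order of arrays described for the 50, including the low differentiated replicate 3. These correlations rest on arrays of 4 groups and are a description of likeness in these arrays.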

How the data were processed

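Total RNA of the 10 samples was labelled and hybridized to Affymetrix mouse expression arrays, 1 array per sample. The deposited values are normalized log2 levels per probe set, which the authors computed by RMA with the program Affymetrix Expression Console, as named without versions in the submitters' processing notes, and no further normalization was applied. The A-Fos, chromatin and methylation experiments were not analysed here. Of 45101 probe sets, 34958 carried 1 gene symbol in the annotation used, 932 several and 9211 none, and those with 1 symbol were averaged to 18194 genes. Of these 34754 were matched to the RefSeq table, which changed 0 symbols. 0 value columns belonged to no sample.

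Python 3.11.15 with pandas 2.3.3 and limma 3.58.1 in R 4.3.3 were used. A model with a coefficient for each of the 4 groups was fitted to the 10 arrays, followed by eBayes. P-values are two-sided and adjusted by Benjamini-Hochberg over the 18194 genes, with a threshold of 0.05. Differentiated arrays were compared with undifferentiated, A-C/EBP and 5-AZA arrays each with differentiated, and A-C/EBP with 5-AZA arrays. The first 3 comparisons share the 4 differentiated arrays. Groups and replicate numbers were taken from the sample titles (both A-C/EBP descriptions carry the number 2). Labels put both treatments after the first day in culture, whereas the methods put 5-AZA some hours after seeding.

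The members and all lists were chosen with earlier results of these data known. Values in every array are given for up to 2 genes per role with the smallest adjusted p in differentiation and for those called in another comparison. Of other genes, up to 3 per list with the smallest adjusted p, those called against the direction of their list, and the 6 most like the mean of the 50 are named. Bub3, Mki67, the array values of Cep55, uncalled genes and Cdc23, Dbf4 and Gmnn were named after their values were seen. Motifs were searched in RefSeq windows of 300 bases on both strands (32851 windows). Alternatives covered scaling, probe set summary, filters, the variance model, the replicate block, choice of controls, the methods' t-test and each array left out, and 2 were added after seeing the data (omission of probe sets below the array median in every array, and the hybridization control level as a covariate). The fit was tested on simulated data. The number of arrays limits precision.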

Additional observations from a re-analysis of the deposited data

Results flagged for a closer look

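In the 4 differentiated arrays, Ttk had 1 value far from the rest. It stood at 3.87 in replicate 3 and at 4.36 to 4.44 in the others, and the gap between replicate 3 and its nearest neighbour was 0.853 of the range of the group. For Nusap1 the same array stood at 4.56 against 4.94 to 4.98, a gap of 0.894 of the range. Of the 50 genes these were the 2 in which such a gap passed Dixon's critical value for 4 samples, and chance gives such a gap in about 1 of 20 groups. Without differentiated replicate 3 all 50 genes still fell in differentiation, and the number that fell with A-C/EBP was 21 in place of 6.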

How the results depend on the processing

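In differentiation, every gene tested kept its direction under every alternative (42 of the 50 remained after omission of the dimmest 40% of genes, and 49 without _x_at and _s_at probe sets), and 43 to 50 fell with an array left out (43 without undifferentiated replicate 1). The methods' t-test after Benjamini-Hochberg adjustment called 22. With A-C/EBP, the 6 falls became 0 to 21 with an array left out, 29 under the replicate block, 0 against differentiated arrays 3 and 4 alone, 0 by the methods' t-test and 28 by a change of more than 0.5 without a test. With 5-AZA, 2 genes (Depdc1a and Ect2) were lower under the replicate block and 8 by the 0.5 limit. Between A-C/EBP and 5-AZA, 0 to 1 were lower with an array left out, 1 after quantile normalization, 1 without the dimmest 40% of genes, 1 without probe sets below the array median in every array, 2 with hybridization controls as a covariate, 9 under the replicate block and 21 by the 0.5 limit. The cause of these shifts was not tested.

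Nothing in the labels says that a replicate number marks a shared litter, batch or day, and arrays were not treated as paired. Deviations of same-numbered arrays from their group means correlated at 0.09 to 0.43, the 5-AZA and differentiated arrays numbered 2 being the lowest and the other pairs at 0.23 or more, and the replicate block uses differentiated arrays 1 and 2 only.

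Over the 50 genes, the number below 0 was 22 to 47 with 5-AZA over the alternatives that tested all 50, 48 to 49 with A-C/EBP and 41 to 49 between the treatments. Of the genes named with values in a comparison, the following turned sign, none of which had passed there. With 5-AZA, Bub3 was at -0.02 after median centring, Cks2, Mki67 and Pimreg were at 0.03, 0.61 and 0.05 against differentiated arrays 3 and 4, and Pimreg was at 0.05 with hybridization controls as a covariate. With an array left out, Cks2 ran from -0.15 to 0.02 (above 0 without differentiated replicate 2), Mki67 from -0.86 to 0.28 (0.17 without differentiated replicate 2, 0.28 without 5-AZA replicate 2) and Pimreg from -0.10 to 0.04 (0.02, 0.03 and 0.04 without differentiated replicates 1 and 4 and 5-AZA replicate 2). With A-C/EBP, Cdc25c ran from -0.24 to 0.01 (without differentiated replicate 2). Between A-C/EBP and 5-AZA, Ect2 ran from -0.64 to 0.26 (0.10 without A-C/EBP replicate 2, 0.26 without 5-AZA replicate 1). For the 50 genes, 21 of 109 probe sets stayed below the array median in every array, and without such probe sets the median change in differentiation was -2.16 in place of -1.72.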
